A study of Mus musculus with 4 samples.

Results

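The 5 genes Dpp4, Enho, 1810011O10Rik, Glp1r and Adgre5, out of 20076 genes in the count matrix, were selected on their counts in endothelial cells (ECs), which were lower in libraries labelled ERG CKO than in libraries labelled WT. Their lower EC level chose the genes and is described here without a test. Single-cell RNA-seq had been made from whole lung of 4 female or male mice on a C57/BL6 background. The 2 WT mice carried the alleles ERG fl/fl without Cre, and the 2 ERG CKO mice carried CDH5-CreER(T):ERG fl/fl, in which the Cdh5 promoter drives a tamoxifen-inducible Cre recombinase in endothelium. Both groups thus shared the floxed alleles and received 5 injections of 0.5 mg tamoxifen, 1 a day, and lungs were taken 90 days later; the age of the mice is not given in the sources used here. Each library came from 1 mouse, so every comparison rests on 2 mice against 2.

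The lung capillary bed is made of general capillary cells (gCap), which maintain and repair the bed, and aerocytes (aCap), thin cells specialised for gas exchange. Dpp4 encodes a membrane peptidase that trims the ends of peptides, among them the incretin GLP-1, and Glp1r encodes the receptor through which GLP-1 raises cyclic AMP. Enho encodes adropin, a secreted peptide linked to energy balance and to endothelial nitric oxide. 1810011O10Rik, now named Tcim, encodes TC1, a small protein that binds Chibby, an antagonist of beta-catenin. Adgre5 encodes CD97, an adhesion G protein-coupled receptor that binds CD55, Thy1 and integrins and is well known on leukocytes. ERG is an ETS transcription factor, a family that binds DNA at a GGAA core.

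In GENCODE M21 on GRCm38, Dpp4 spans chr2:62330073-62412231 on the minus strand, with 26 exons in its first listed transcript. Enho is a 2-exon gene at chr4:41638144-41640324 on the minus strand. 1810011O10Rik is a single-exon gene at chr8:24437180-24438984 on the minus strand, and Adgre5 spans chr8:83723251-83741326 on the same strand. Glp1r spans chr17:30901817-30940791 on the plus strand. All 5 are annotated as protein coding.

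Promoter sequence from RefSeq (GRCm38.p6) matched 2 of the 5 genes, Dpp4 and Glp1r. The bases just upstream of each annotated gene are shown 5′ to 3′ on the strand of the gene, so that ETS cores near the start can be seen. Capitals mark GGAA or its reverse complement TTCC. The Dpp4 stretch is chr2:62412232-62412481 (minus strand) and the Glp1r stretch is chr17:30901617-30901816 (plus strand).
Dpp4: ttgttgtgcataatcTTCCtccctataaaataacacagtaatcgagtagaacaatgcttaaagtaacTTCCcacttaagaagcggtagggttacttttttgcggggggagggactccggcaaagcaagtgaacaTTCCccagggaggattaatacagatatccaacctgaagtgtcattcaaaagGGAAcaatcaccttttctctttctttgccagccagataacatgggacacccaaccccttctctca
Glp1r: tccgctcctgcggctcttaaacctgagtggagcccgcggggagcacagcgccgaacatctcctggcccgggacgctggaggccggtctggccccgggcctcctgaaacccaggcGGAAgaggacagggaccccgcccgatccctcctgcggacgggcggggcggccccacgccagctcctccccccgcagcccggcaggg
The Dpp4 stretch of 250 bases held 4 cores on either strand. Of 32851 promoters read over the same length, 93.5% held at least 1 core, with a median of 3, and 33.4% held at least 4. The longer word AGGAAG, which contains the core, was found once (29.5% of promoters), and CGGAAG was not found in this window (13.6% of promoters held it). The Glp1r stretch of 200 bases held 1 core (89.2% of promoters), which was part of a single CGGAAG (9.25% of promoters), and no AGGAAG. These matches describe the letters of the windows alone.

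Depth was similar between libraries, with 11263911 to 18646776 UMIs (unique molecular identifiers, each marking 1 captured RNA molecule) and medians of 4611 to 4899 UMIs per cell. Of 9363 cells, 578 and 701 were ECs in WT 1 and WT 2, and 732 and 498 in ERG CKO 1 and ERG CKO 2. The pan-endothelial markers summed to 15720 and 17070 CPM (UMIs of the gene scaled to a common total over the same cells) in WT ECs and to 13090 and 14040 CPM in ERG CKO ECs. Erg itself was detected at 85.9 and 88.7 CPM in WT ECs and at 105 and 83.5 CPM in ERG CKO ECs (log2 fold change 0.09, SE 0.15, adjusted p = 0.859, edgeR). Which part of Erg is deleted is not given in the sources used here, so its count could not check the genotype and groups are named as labelled. Several other-class markers were higher in the ECs of both ERG CKO libraries than in those of both WT libraries. Erythroid genes (6 markers) summed to 34.8 and 50.8 against 1557 and 2220 CPM. Platelet genes (8 markers) summed to at most 84.9 against 212 and 132 CPM. Interstitial macrophage genes (8 markers) summed to 30.4 and 64.9 against 161 and 94.7 CPM. That list holds Pf4, which also led the platelet cluster, so its sum is not of 1 class alone. Genes of non-classical monocytes (8 markers), the class where Adgre5 is highest, summed to 115 and 91.5 against 177 and 179 CPM. Summed markers of B cells, NK cells, classical monocytes, neutrophils, dendritic cells, fibroblasts and mesothelium had the same order, with sums of at most 101 CPM. The opposite order was found for summed markers of mast cells or basophils (448 and 370 against 290 and 351 CPM), mural cells and alveolar macrophages. Their part in the results was not tested, other than by removing the EC subclusters led by platelet and lymphocyte genes (chosen after the data were seen), which gave log2 fold changes in ECs of -1.59 for Dpp4, -1.47 for Enho, -1.33 for 1810011O10Rik, -1.82 for Glp1r and -0.74 for Adgre5. Of all cell barcodes, 7 occurred in more than 1 library.

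Within ECs the 5 genes were lower in both ERG CKO libraries than in both WT libraries, while each was still detected in both. The choice of the genes fixes this order, which 18.6% of 12867 genes with at least 10 UMIs in ECs also showed. Dpp4 was at 172 and 149 CPM in WT and at 47.5 and 64.0 CPM in ERG CKO, and its log2 fold change from edgeR was -1.58 (SE 0.17). Enho was at 77.4 and 86.8 CPM in WT and at 24.1 and 38.6 CPM in ERG CKO (log2 fold change -1.46, SE 0.21). These are the peptidase and the secreted peptide of the set, and their ERG CKO means were 34.8% and 38.2% of the WT means. 1810011O10Rik was at 392 and 341 CPM in WT and at 165 and 128 CPM in ERG CKO (log2 fold change -1.36, SE 0.17). Adgre5 was at 1117 and 1062 CPM in WT and at 606 and 725 CPM in ERG CKO (log2 fold change -0.75, SE 0.13). The ERG CKO mean of Adgre5, the adhesion receptor, was 61.1% of the WT mean, which was the smallest of the 5 reductions. Glp1r rested on few molecules, 47 and 56 UMIs in WT ECs and 14 and 19 UMIs in ERG CKO ECs, or 17.4, 17.5, 3.07 and 7.11 CPM. Its log2 fold change was -1.91 (SE 0.38). With 1 library left out it ran from -2.52 (without ERG CKO 2) to -1.36, and it was -1.15 in cells drawn down to 1000 UMIs each. Among the 10699 genes tested in ECs, 124 (1.16%) were called lower and 186 (1.74%) higher by edgeR with adjusted p no higher than 0.05, and the median log2 fold change of all genes was 0.01.

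**Figure D1:**
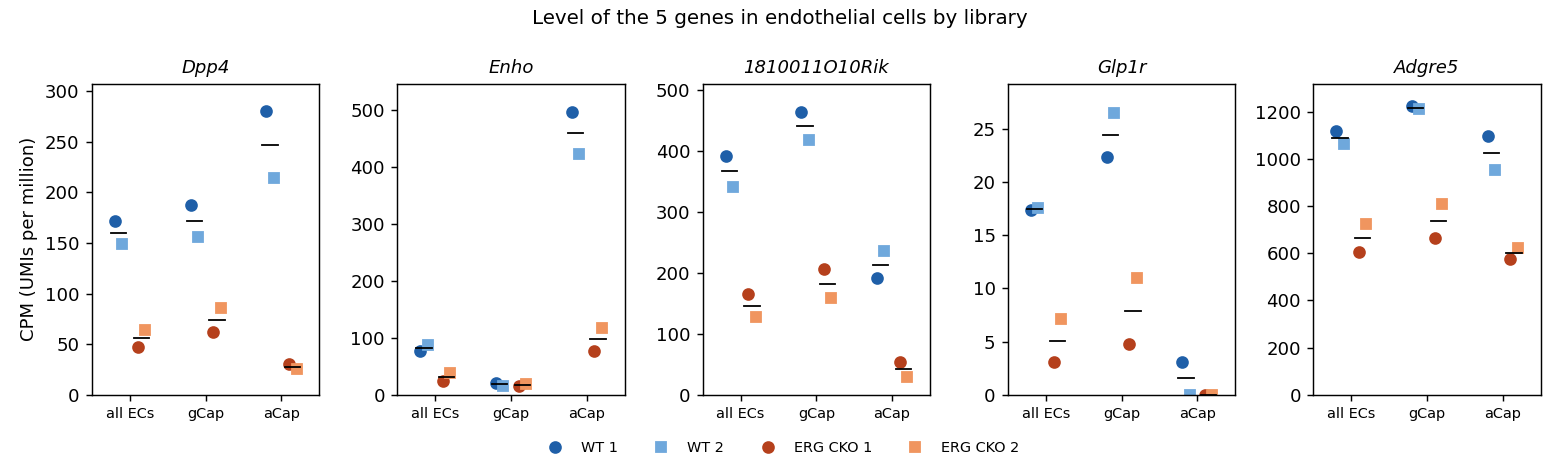
Level of each gene (CPM, y axis from 0) in all ECs, gCap and aCap; each point is 1 library and each black line the mean of the 2 libraries of a group. Both ERG CKO points lie below both WT points in every panel group except Enho in gCap and Glp1r in aCap.

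ECs were divided into subtypes by clustering without the 5 genes. In the WT libraries 77.5% and 73.3% of ECs were gCap, against 61.6% and 65.5% of ERG CKO ECs, and the aCap share was 7.44% and 10.4% against 15.2% and 19.9%. These shares depended on the alignment of the libraries: without it, gCap made up 78.8% and 74.0% of WT ECs and 33.0% and 37.0% of ERG CKO ECs, and aCap 10.5% and 15.5% against 36.3% and 51.0%. The gCap name joined 4 subclusters, one of which was led by the interferon-response genes Ifit1 and Isg15. The label as capillary genes held in part: in WT, Dpp4 was highest in aCap and gCap, Enho in aCap, and 1810011O10Rik and Glp1r in gCap, whereas Adgre5 reached its highest level in non-classical monocytes and 1810011O10Rik was also high in arteries.

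In gCap, 4 of the 5 genes were lower in both ERG CKO libraries than in both WT libraries, an order shown by 18.5% of 11851 genes there. Dpp4 was at 188 and 156 CPM in WT gCap and at 62.5 and 85.4 CPM in ERG CKO gCap (log2 fold change -1.27, SE 0.18). 1810011O10Rik was at 464 and 417 CPM against 206 and 159 CPM (log2 fold change -1.30, SE 0.17). Adgre5 was at 1223 and 1210 CPM against 666 and 809 CPM (log2 fold change -0.76, SE 0.14). The groups did not overlap for these genes, which are the peptidase, TC1 and the adhesion receptor. Glp1r, whose EC UMIs came from gCap for 87.2% and 94.6% in WT, was at 22.3 and 26.5 CPM against 4.80 and 11 CPM (log2 fold change -1.76, SE 0.36). Enho was at 21.3 and 16.0 CPM in WT gCap and at 14.8 and 19.4 CPM in ERG CKO gCap, and the groups overlapped (log2 fold change -0.18, SE 0.28). Glp1r was also read in each gCap subcluster, on few UMIs and without a test. In subcluster 2 it was at 23.9 and 13.5 CPM in WT libraries against 3.83 and 9.14 CPM in ERG CKO. In subcluster 5 it had 1 and 5 UMIs in WT libraries and 1 in each ERG CKO library. In subcluster 0 it was at 21.3 and 24.8 CPM in WT libraries against 0.897 and 2.93 CPM in ERG CKO (20, 23, 1 and 2 UMIs). In subcluster 1, where Lpl and Hilpda were among the leading genes, it was at 22.8 and 36.4 CPM in WT libraries against 11.4 and 22.8 CPM in ERG CKO (9, 18, 8 and 12 UMIs), so WT 1 and ERG CKO 2 were level there. With the gCap cells named without alignment, the log2 fold changes were nearer 0, at -0.64 for Dpp4, -0.78 for 1810011O10Rik, -0.95 for Glp1r and -0.45 for Adgre5.

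In aCap, 4 of the 5 genes were again lower in both ERG CKO libraries, an order shown by 20.8% of 9780 genes there. Enho was at 496 and 422 CPM in WT aCap and at 77.4 and 117 CPM in ERG CKO aCap (log2 fold change -2.27, SE 0.22). Dpp4 was at 280 and 215 CPM against 30.1 and 25.4 CPM (log2 fold change -3.14, SE 0.25). 1810011O10Rik was at 191 and 235 CPM against 54.4 and 28.8 CPM (log2 fold change -2.36, SE 0.27). The ERG CKO means of Dpp4, Enho and 1810011O10Rik in aCap were 11.2%, 21.2% and 19.5% of the WT means, against 43.0%, 91.8% and 41.3% in gCap. Adgre5 was at 1096 and 953 CPM against 577 and 622 CPM in aCap (log2 fold change -0.79, SE 0.17), and its ERG CKO mean was 58.5% of the WT mean in aCap and 60.6% in gCap. Whether the reduction differed between aCap and gCap was not tested, since both come from the contrast that chose the genes. Glp1r had 1 UMI in WT 1 aCap and none in the other 3 libraries, where 3 UMIs would have been 4.30 to 5.60 CPM. With the aCap cells named without alignment, the log2 fold change was -3.08 for Enho and -1.77 for 1810011O10Rik, and with thinned cells it was -1.58 for 1810011O10Rik and -0.50 for Adgre5.

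Other genes also differed in aCap, where 20.8% of 9780 genes were lower in both ERG CKO libraries. Of the 12 aerocyte genes on the list used below, only Car4 and Ednrb were read within aCap. The 8 pan-endothelial markers summed to 19930 and 20510 CPM in WT aCap and 12150 and 11950 CPM in ERG CKO aCap. Car4, an aCap marker that encodes a carbonic anhydrase, was at 3304 and 3635 CPM in WT aCap and at 1480 and 1504 CPM in ERG CKO aCap. Ednrb, the aCap marker that encodes an endothelin receptor, was at 2337 and 2088 CPM against 931 and 1769 CPM. The part of these differences in the values of the 5 genes was not tested.

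Outside the capillaries the ECs gave fewer cells. In arteries (33 to 41 cells per library) 1810011O10Rik was at 378 and 356 CPM in WT and at 154 and 189 CPM in ERG CKO, and Dpp4 was at 94.4 and 138 CPM against 26.3 and 50.5 CPM. Neither gene's groups overlapped in arteries, where 15.4% of 8193 genes were lower in both ERG CKO libraries. In veins (20 to 72 cells) 1810011O10Rik was at 217 and 91.8 CPM in WT and at 174 and 178 CPM in ERG CKO, so its groups overlapped. Dpp4 had 1 to 5 UMIs per library in veins. Adgre5 in veins was at 726 and 637 CPM in WT and at 452 and 617 CPM in ERG CKO, without overlap, as 14.9% of 9032 genes were. Lymphatic ECs numbered 3 to 8 cells per library and had no Dpp4 or Glp1r UMI.

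The mix of EC subtypes differed between the groups, so EC levels were also computed with each library set to the mean WT mix. The log2 ratio of ERG CKO to WT means was then -1.45 for Dpp4, -1.63 for Enho, -1.23 for 1810011O10Rik, -1.61 for Glp1r and -0.68 for Adgre5, beside observed ratios of -1.52, -1.39, -1.32, -1.78 and -0.71. With WT levels in every subtype and only the mix changed, the log2 ratio was 0.30 for Enho, in the direction opposite to the observed one, and between -0.09 and 0.02 for the other 4 genes.

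The share of ECs with at least 1 UMI was compared in cells drawn down to 1000 UMIs each (thinned), without the 3 to 10 shallower ECs of each library. In gCap, 16.9% and 13.6% of WT cells and 5.62% and 7.52% of ERG CKO cells had a Dpp4 UMI. In aCap the Dpp4 shares were 30.2% (95% Wilson interval 18.6 to 45.1) and 19.2% (11.8 to 29.7) in WT and 4.50% (1.94 to 10.1) in ERG CKO 1, and no cell of 99 had a Dpp4 UMI in ERG CKO 2, which allows a share of up to 3.03% by the limit of 3 cells (Wilson upper bound 3.74%). Before thinning 11.1% of these 99 cells had a Dpp4 UMI. Intervals and limits cover counting error alone. Enho was detected in 39.5% and 34.2% of WT aCap cells and in 6.31% and 8.08% of ERG CKO aCap cells. In gCap the Enho shares were 1.80% and 1.78% in WT libraries against 1.57% and 1.25% in ERG CKO. 1810011O10Rik was detected in 31.9% and 30.6% of WT gCap cells and in 16.9% and 10.03% of ERG CKO gCap cells. The Glp1r share in gCap was 2.25% and 2.17% in WT libraries against 0.674% and 1.88% in ERG CKO, each near the level of single UMIs. Adgre5 was detected in 67.4% and 66.5% of WT gCap cells and in 46.7% and 53.3% of ERG CKO gCap cells. In aCap the Adgre5 shares were 69.8% and 47.9% in WT libraries against 46.8% and 47.5% in ERG CKO, so WT 2 and both ERG CKO libraries were close.

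Without thinning, 47.1% and 43.7% of WT ECs and 21.7% and 24.9% of ERG CKO ECs had a Dpp4 UMI, and 95.5% and 95.01% against 87.4% and 90.4% had an Adgre5 UMI. For 1810011O10Rik these shares were 63.7% and 55.4% against 43.0% and 29.9%, for Enho 15.2% and 14.6% against 11.2% and 13.9%, and for Glp1r 7.61% and 7.28% against 1.91% and 3.61%. As a measure of free RNA, Dpp4 UMIs were found in 0.510% to 2.33% of alveolar macrophages, whose median depth was 15058 to 16814 UMIs against 4004 to 5438.5 UMIs in ECs. Among T cells, of median depth 5846 to 6375 UMIs, 0.267% to 0.637% had a 1810011O10Rik UMI, 0.342% to 0.789% an Enho UMI, and none a Glp1r UMI. All of these lay below the EC shares of the same gene. For Adgre5 the lowest class was the alveolar macrophage, at 5.61% to 14.7%.

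The number of UMIs per positive cell was read without thinning, in aCap cells that were deeper in WT (medians of 6992 and 7455 UMIs) than in ERG CKO (5965 and 5710 UMIs). In aCap, cells positive for Enho held 3.74 and 3.65 Enho UMIs on average in WT, against 1.54 and 1.86 in ERG CKO, and cells positive for Dpp4 held 2.68 and 2.17 Dpp4 UMIs in WT and 1.40 and 1.36 in ERG CKO. In gCap the groups did not separate this way, with 1.054 and 1.032 Enho UMIs per positive cell in WT, against 1.16 and 1.07 in ERG CKO, and Dpp4 level between WT 2 and ERG CKO 2. After thinning, 32.3% and 27.1% of WT ECs and 11.5% and 9.39% of ERG CKO ECs had UMIs of at least 2 of the 5 genes. In aCap this share was 53.5% and 34.2% in WT libraries against 10.8% and 3.03% in ERG CKO. ECs without a UMI of any of the 5 genes were 21.6% and 22.9% of thinned cells in WT and 46.0% and 41.0% in ERG CKO.

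**Figure D2:**
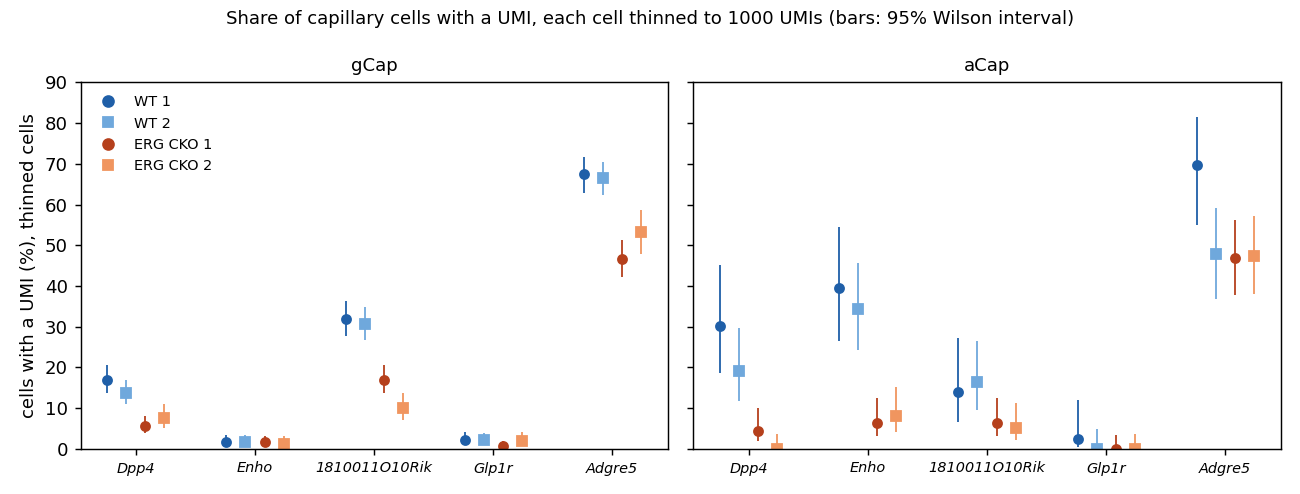
Share of gCap and aCap cells (%, y axis) with at least 1 UMI of each gene in cells thinned to 1000 UMIs; points are libraries and bars are 95% Wilson intervals for counting error. Dpp4 and Enho in aCap and 1810011O10Rik in gCap show both ERG CKO points below both WT points, while the Adgre5 points of WT 2 and both ERG CKO libraries lie together in aCap.

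A further 870 barcodes formed a low-depth cluster (medians of 947 to 1086 UMIs) that was given no cell type. Its leading genes included Hbb-bs, Scn7a, Epas1, Podxl and Adgrf5, and Scn7a was also among the leading genes of an EC cluster. How many of these barcodes are shallow ECs was not tested, so their values are no evidence from outside ECs. All 5 genes were lower there in both ERG CKO libraries than in both WT libraries, an order that 18.7% of 8622 genes showed. In these barcodes Dpp4 was at 120 and 143 CPM in WT libraries against 43.7 and 53.6 CPM in ERG CKO, from 24, 23, 21 and 13 UMIs. 1810011O10Rik was at 264 and 143 CPM against 91.5 and 66.0 CPM, and Adgre5 at 1106 and 767 CPM against 445 and 615 CPM. They come from the same mice as the ECs and are no further replicates.

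Across the whole lung the genes differed in how far they were endothelial. Over all libraries, ECs held 81.0% of Glp1r UMIs, 73.2% of 1810011O10Rik UMIs, 71.8% of Enho UMIs, 46.5% of Dpp4 UMIs and 40.4% of Adgre5 UMIs. The low-depth barcodes are counted outside ECs in these shares. ECs held 53.6% and 58.8% of the Dpp4 UMIs of the WT libraries, against 28.6% and 40.7% of those of ERG CKO. For Adgre5 the EC share was 48.1% and 46.8% in WT libraries against 33.4% and 34.2% in ERG CKO. Summed over all cells of the lung, Adgre5 was at 427 and 544 CPM in WT libraries against 445 and 503 CPM in ERG CKO, so the EC difference did not show in the whole-lung total.

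Dpp4, ranked by its mean in the WT libraries, followed the order aCap, gCap, arteries, dendritic cells, platelets, epithelium, mural cells, fibroblasts, B cells and T cells. Dendritic cells were at 117 and 103 CPM, within the range of arteries, and aCap and gCap did not overlap. B cells were at 57.5 and 39.4 CPM and T cells at 39.8 and 36.8 CPM. Below these, classical monocytes were at 19.4 and 21.4 CPM and the other classes lower on average, with 1 UMI in all WT NK cells. Enho had 1 clear peak: after aCap came lymphatic ECs, on 4 UMIs in all, and mural cells at 65.9 and 64.9 CPM. Mural cells are the pericytes and smooth muscle around vessels. Mural cells and fibroblasts also held RNA of the endothelial gene Cdh5, given below, and its part in these ranks was not tested. Every other class had an Enho mean below 50 CPM in WT.

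1810011O10Rik followed the order gCap, arteries, aCap, veins, mural cells, fibroblasts and platelets, and neighbours from aCap to platelets overlapped. Mural cells were at 148 and 114 CPM and fibroblasts at 145 and 114 CPM in WT. The part of endothelial RNA in the levels of these classes, where Cdh5 was also found, was not tested. Among leukocytes it was detected mainly in macrophages, at 43.2 and 53.3 CPM in alveolar and 27.4 and 73.3 CPM in interstitial macrophages (the latter on 7 UMIs), beside 3.11 and 0.419 CPM in T cells. Glp1r was highest in gCap, and the next 7 classes in order, all of them at means below 10 CPM, overlapped their neighbours. In 11 of the 19 classes and subtypes no Glp1r UMI was found in WT, including T cells, where 3 UMIs would have been 1.04 and 1.26 CPM. Adgre5 was at 1275 and 1270 CPM in non-classical monocytes, followed by gCap, aCap, neutrophils at 876 and 1125 CPM and classical monocytes at 857 and 767 CPM. Neutrophils and aCap overlapped. The lowest Adgre5 levels were in alveolar macrophages (5.52 and 27.5 CPM) and lymphatic ECs (1 UMI).

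**Figure D3:**
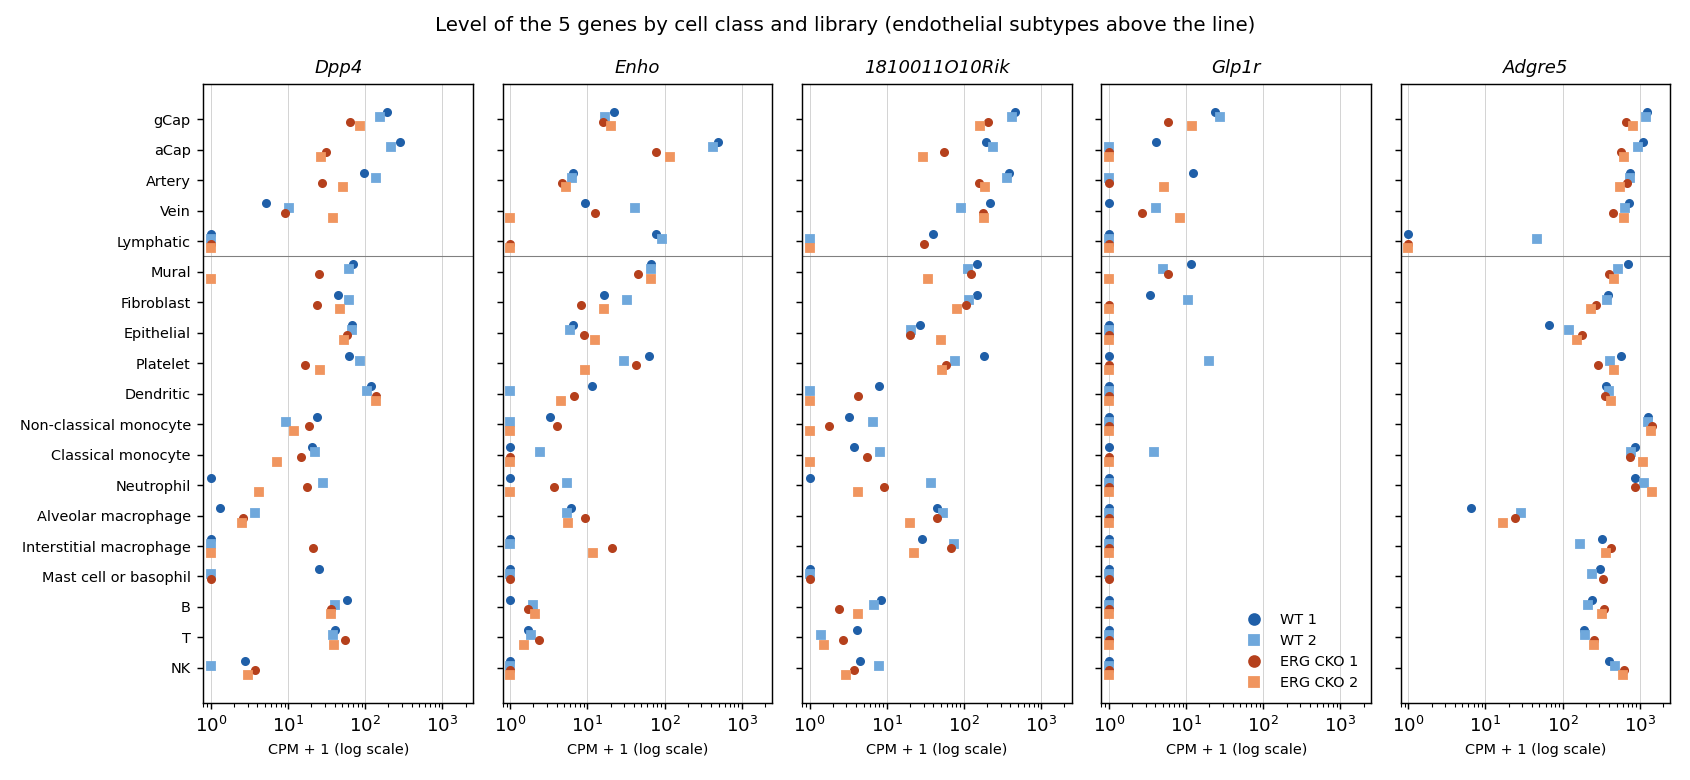
Level of each gene (CPM + 1, log scale, x axis) in EC subtypes, above the grey line, and in other cell classes, below it; each point is 1 library. Adgre5 is high in monocytes and neutrophils as well as in capillaries, Glp1r is low outside gCap, and Enho stands highest in aCap.

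The genes most alike in pattern were found over 38 points, the 19 classes and subtypes in each of the 2 WT libraries, among 12372 genes. The points share libraries, and the correlations are a description. Closest to Dpp4 were Msi2 (Pearson r 0.76), Rgs12 (0.74) and Prkce (0.74). Closest to Enho were Tmod2 (0.91), Meox1 (0.91) and Chst1 (0.90), and closest to 1810011O10Rik were Maoa (0.95), Sorbs3 (0.91) and Acvrl1 (0.91). Glp1r was followed by Msh5 (0.82), Scube1 (0.79) and Aplnr (0.79), and Adgre5 by Mfng (0.74), Lrrc8c (0.71) and Rap1a (0.71). Among the 5 genes themselves r ranged from 0.05 for Adgre5 with Enho to 0.60 for 1810011O10Rik with Glp1r.

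Whether the genes also differed in cells other than ECs was tested in the 11 named classes with at least 20 cells in every library. Of the 21 pairs of gene and class that passed the filter on low counts, none had an edgeR adjusted p as low as 0.05, beside 127 of 67354 pairs over all genes (0.189%). Over all genes of a class the share called was 0.801% in fibroblasts, 0.733% in dendritic cells, 0.655% in platelets, 0.146% in B cells, 0.0334% in T cells, 0.022% in classical monocytes and 0.0194% in NK cells, and no gene was called in alveolar macrophages, epithelium, neutrophils or non-classical monocytes. At an unadjusted p under 0.05 there were 6 such pairs by edgeR and 4 by DESeq2, which called none either, and over all genes edgeR gave 4223 of 67354 pairs (6.27%) at that level. The lowest adjusted p was 0.424 by edgeR. Adgre5 was tested in all 11 classes, Dpp4 in 6, 1810011O10Rik in 3 and Enho in 1, and Glp1r in none. The p-values measure the spread between the mice of a group. That spread includes sex, since Xist UMIs were found only in replicate 1 and Ddx3y UMIs only in replicate 2 of both groups.

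Adgre5 was above 0 on the log2 scale in 9 of its 11 classes. In B cells it was at 237 and 215 CPM in WT and at 346 and 323 CPM in ERG CKO (log2 fold change 0.60, SE 0.19, adjusted p = 0.599, edgeR). In NK cells it was at 396 and 477 CPM against 629 and 599 CPM (log2 fold change 0.49, SE 0.16, adjusted p = 0.688), and in T cells at 190 and 194 CPM against 253 and 258 CPM (log2 fold change 0.42, SE 0.13, adjusted p = 0.770). Both ERG CKO libraries lay above both WT libraries in these lymphocytes, but no value passed the test. The share of all genes with that order was not counted in these classes, so the order alone marks no pattern. In T cells the adjusted p was 0.00408 with the replicate number as a block (Xist was detected only in the replicates numbered 1, so the number also separates the sexes). In non-classical monocytes, where the gene is highest, it was at 1275 and 1270 CPM against 1444 and 1395 CPM (log2 fold change 0.11, SE 0.10, adjusted p = 0.993). In fibroblasts it was at 386 and 377 CPM against 271 and 233 CPM (log2 fold change -0.57, SE 0.21, adjusted p = 0.424). The fibroblast class also held endothelial RNA: the pan-endothelial gene Cdh5 was at 525 and 666 CPM there in WT and at 698 and 613 CPM in ERG CKO, against 1899 and 1832 CPM in WT ECs, and its part in the fibroblast values of the 5 genes was not tested. In alveolar macrophages it was at 5.52 and 27.5 CPM against 23.4 and 15.7 CPM (log2 fold change 0.43, SE 0.54, adjusted p = 0.996). WT 2 decided that last value: without it, the log2 fold change was 1.84 with an adjusted p of 0.00101.

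Dpp4 in dendritic cells was at 117 and 103 CPM in WT and at 138 and 138 CPM in ERG CKO (log2 fold change 0.33, SE 0.23, adjusted p = 0.775, edgeR). In T cells it was at 39.8 and 36.8 CPM against 54.5 and 38.8 CPM (log2 fold change 0.32, SE 0.19, adjusted p = 0.9995). In fibroblasts it was at 44.0 and 60.7 CPM against 22.4 and 45.6 CPM (log2 fold change -0.88, SE 0.38, adjusted p = 0.504), and without ERG CKO 1 the log2 fold change was -0.19. The groups overlapped in fibroblasts but not in dendritic cells, and in T cells ERG CKO 2 lay within the WT range. In epithelium Dpp4 was at 67.2 and 65.5 CPM against 57.6 and 51.8 CPM (log2 fold change -0.60, SE 0.25, adjusted p = 0.606). The epithelial class was not held by the same cells in both groups: cluster 23, led by the surfactant gene Sftpc, gave 21 and 14 cells in WT and 9 and 8 in ERG CKO, cluster 18, led by Scgb1a1 and Ager, gave 27 and 10 against 46 and 53, and median depth was 18045 and 20242 against 2370 and 715 UMIs. Cdh5 in epithelium was at 121 and 93.9 CPM in WT and at 270.5 and 271 CPM in ERG CKO. 1810011O10Rik in fibroblasts was at 145 and 114 CPM in WT and at 106 and 81.1 CPM in ERG CKO (log2 fold change -0.41, SE 0.25, adjusted p = 0.736). Mural cells, with only 15 cells in ERG CKO 2, were not tested. There Adgre5 was at 710 and 528 CPM in WT libraries against 398 and 460 CPM in ERG CKO. Dpp4 in mural cells was at 69.4 and 60.9 CPM in WT and 24.3 CPM in ERG CKO 1. It had no UMI in ERG CKO 2, where 3 UMIs would have been 98.5 CPM, above both WT levels. Cdh5 in mural cells was at 917 and 459 CPM in WT and at 713 and 263 CPM in ERG CKO.

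**Figure D4:**
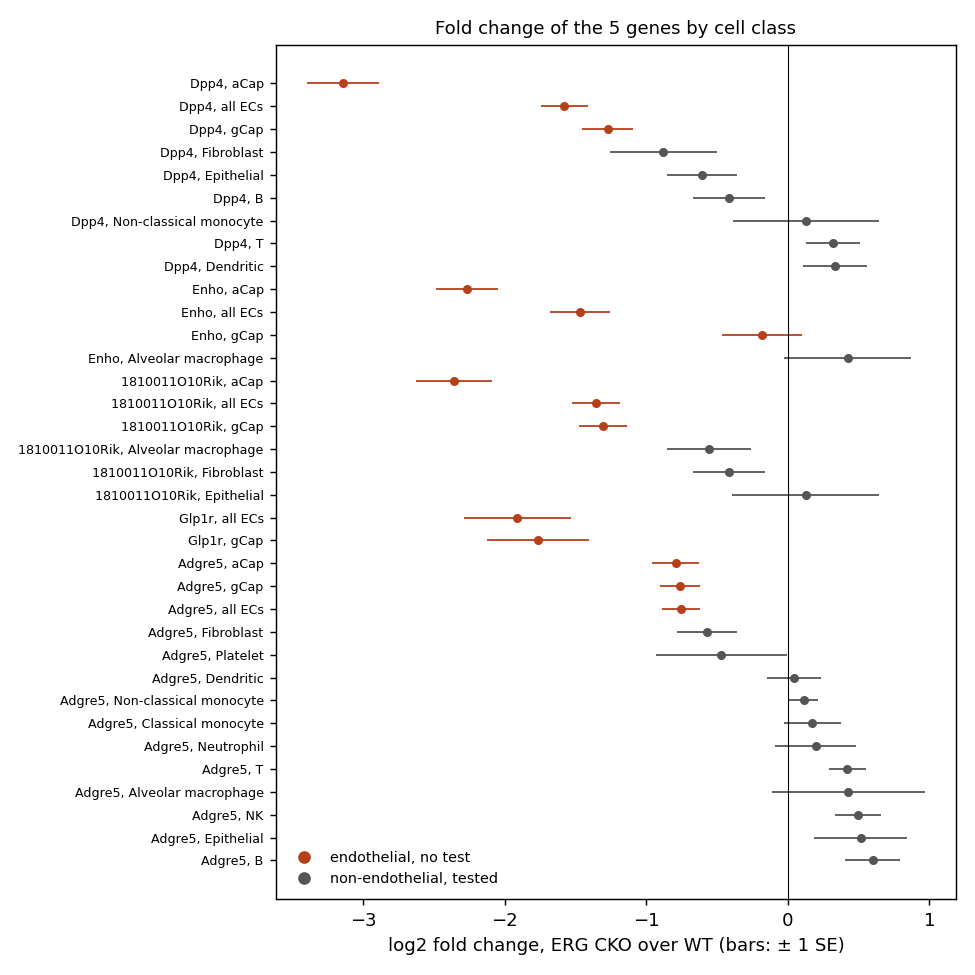
Log2 fold change of ERG CKO over WT (x axis, bars ± 1 SE from edgeR) for each gene in ECs, gCap and aCap, which were not tested, and in the non-endothelial classes that were. EC values run from -3.14 for Dpp4 in aCap to -0.18 for Enho in gCap, and non-endothelial values from -0.88 to 0.60, with none past the test.

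Genes around the 5 were read from 11 lists in the EC comparison, in which 310 of 10699 genes (2.9%) were called by edgeR in either direction. With the 5 genes left out, 9 listed genes were called, and 36 with the replicate number as a block. At an unadjusted p under 0.05 there were 1774 of the 10699 genes (16.6%), against which the counts of that kind below are to be read. None was called when WT 1 or WT 2 was left out, 21 were called without ERG CKO 1 and 29 without ERG CKO 2. The list of the DPP4 family and other peptide-cutting enzymes includes Dpp7, Dpp8, Dpp9, Prep and Ace. Of its genes, 9 of 16 were tested and none was called (1 at an unadjusted p under 0.05), with a median log2 fold change of 0.03. Among DPP4 partners and substrates, Fn1, which encodes the matrix protein fibronectin, rose (1 of 9 tested; log2 fold change 1.90, SE 0.36, adjusted p = 0.0435). The Fn1 call was also lost at most 10% mitochondrial UMIs (adjusted p = 0.0724, edgeR) and without alignment (0.0729). The median of that list was 0.74. Cav1, which encodes the caveolar protein that DPP4 binds, was at -0.54 (SE 0.12, adjusted p = 0.0640) and did not pass.

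Of the class B receptors related to GLP-1 receptor and their partners, 5 of 17 were tested and Ramp2, the partner of the adrenomedullin receptor, fell (log2 fold change -0.73, SE 0.12, adjusted p = 0.0271). Its receptor Calcrl was at -0.40 (SE 0.13, adjusted p = 0.172). In the cyclic AMP pathway below GLP-1 receptor, 22 of 28 genes were tested, 1 fell and none rose, with a median of -0.01. The gene that fell was Adcy4, an adenylyl cyclase (log2 fold change -0.78, SE 0.12, adjusted p = 0.0218, or 0.0522 with thinned cells). The phosphodiesterase gene Pde4c was at -2.14 (SE 0.45, adjusted p = 0.0556).

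Of the adhesion receptors beside Adgre5, 11 of 29 were tested and none was called (5 at an unadjusted p under 0.05), with 9 of 11 below 0 and a median of -0.36. Adgrl4, a receptor of vessel-forming endothelium, was at -0.58 (SE 0.13, adjusted p = 0.0715). None of 5 tested CD97 ligands was called (2 at an unadjusted p under 0.05), and Cd55 was at -0.49 (SE 0.35). Of 11 tested genes of the adropin receptor and nitric oxide pathway none was called (2 at an unadjusted p under 0.05, median -0.26), and Nos3, the endothelial nitric oxide synthase, was at -0.47 (SE 0.31). Of 15 tested Wnt and beta-catenin genes around TC1 none was called (3 at an unadjusted p under 0.05, median -0.01). Cby1, which encodes Chibby, was at 0.17 (SE 0.16). DESeq2 called 11 listed genes in all.

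General capillary genes were read in all ECs together. The mix of EC subtypes differed between the groups, and its part in the values of this list and of the aerocyte list was not tested. All 15 were tested, 4 fell and none rose, with a median of -0.53 against 0.01 for all genes. Tek, the angiopoietin receptor, fell by 0.96 on the log2 scale (SE 0.13, adjusted p = 0.0148). Gpihbp1, which anchors lipoprotein lipase in capillaries, fell by 0.90 (SE 0.15, adjusted p = 0.0296), Aplnr, the apelin receptor, by 0.87 (SE 0.14, adjusted p = 0.0271), and Kit, the receptor of stem cell factor, by 0.66 (SE 0.13, adjusted p = 0.0488). Of 12 aerocyte genes 1 rose, Apln, which encodes apelin (log2 fold change 0.65, SE 0.13, adjusted p = 0.0467), and none fell, with a median of -0.29. Besides the fits without a WT library, the Apln call was lost with DESeq2 (adjusted p = 0.141), at most 10% mitochondrial UMIs (adjusted p = 0.0532, edgeR), resolution 0.4 (0.0540) and no alignment (0.0840), and its log2 fold change was 1.44 with thinned cells. Of 8 pan-endothelial genes 7 were below 0, with a median of -0.31, and 6 had an unadjusted p under 0.05 by edgeR. Among them Emcn, a surface sialomucin, rose (log2 fold change 1.48, SE 0.14, adjusted p = 0.00772) and Ramp2 fell. The lists were drawn up with earlier results of these data known, so they are no independent evidence of direction.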

How the data were processed

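Whole-lung cells of 4 mice were profiled by the authors on the 10x Genomics platform. The authors deposited 1 matrix of UMI counts, not normalized. The submitters' processing notes name Cell Ranger 3.1.0 and the mm10 build; a quality filter is stated without limits, and the study states fewer cells than the barcodes deposited, all of which were used. Cells were clustered in Seurat 5.3.0 (2000 variable genes, CCA alignment, 30 dimensions and resolution 0.8; ECs 20 dimensions and 0.6, leaving out the 5 genes, Erg and genes called in ECs) and named from marker lists with at least 3 markers present (log2 fold of at least 1, or 0.25 for EC subtypes). Names were rebuilt, so differences from the study may come from them. Scrublet (scanpy 1.11.5) marked 60 doublets (0.641%), which were kept. Counts summed per library were tested with edgeR 4.0.16 (TMM, filterByExpr, Benjamini-Hochberg), tested on simulated data. DESeq2 1.42.0, other normalization, filters, clusterings, thinning and left-out libraries were alternatives. The genes, lists and limits were chosen with earlier results of these data known. Named genes were the 5 genes, Erg, up to 6 called genes per list and the 3 most alike; others were named after their values were seen.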

Additional observations from a re-analysis of the deposited data

Results flagged for a closer look

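Effects in opposite directions between cell classes were untested as differences. They were listed where both ERG CKO libraries lay above both WT libraries in 1 class and below them in another. The share of all genes with such orders was not counted in these classes. In EC subtypes 14.9% to 20.8% of genes were lower in both ERG CKO libraries, so the listing alone marks no pattern. For Dpp4 the log2 fold change was 0.33 in dendritic cells, against -0.41 in B cells and -0.60 in epithelium. For Adgre5 it was 0.60 in B cells, 0.51 in epithelium, 0.49 in NK cells, 0.42 in T cells and 0.11 in non-classical monocytes, against -0.57 in fibroblasts. No value passed the main test within its class, and the difference between classes was not tested. With the replicate number as a block, Adgre5 in T cells had an edgeR adjusted p of 0.00408. Epithelial cells of the ERG CKO libraries were shallower than those of WT, as given above.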

How the results depend on the processing

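With 2 mice a group, calls depended on each library. Genes called in ECs (310) numbered 6 to 733 with 1 library left out, 1133 with no filter on low counts, 1019 with the replicate block and 175 with thinned cells; listed genes called (9) numbered 0 to 29, 35 with no filter and 36 with the block. Pairs of the 5 genes and non-endothelial classes called (0) numbered 0 to 1 with 1 library left out and 1 with the block. The labels give the replicates a shared number and nothing more, but Xist UMIs were found only in replicate 1 and Ddx3y UMIs only in replicate 2 of both groups, so the block also pairs the sexes (r 0.30 between the replicate differences of the groups over 10699 genes). A lone library left in a group is assumed to vary like the other group. In ECs the log2 fold changes kept their sign in all 15 alternatives, which reuse the counts that chose the genes and so are no support. Values for 1810011O10Rik moved to -1.57 with thinned cells (-1.59 to -1.17 with 1 library left out), and for Glp1r to -1.15 with thinned cells (-2.52 to -1.36). Within subtypes all alternatives ran from -1.48 to -0.64 for Dpp4, -1.54 to -0.78 for 1810011O10Rik, -2.35 to -0.95 for Glp1r and -0.89 to -0.45 for Adgre5 in gCap, and from -3.34 to -2.93 for Dpp4, -3.08 to -1.997 for Enho, -2.93 to -1.58 for 1810011O10Rik and -0.89 to -0.50 for Adgre5 in aCap. With 1 library left out, Dpp4 ran from -1.14 to -0.19 in fibroblasts, -0.60 to -0.23 in B cells and 0.0181 to 0.52 in T cells, 1810011O10Rik from -0.74 to -0.21 in fibroblasts and Adgre5 from 0.0985 to 1.02 in epithelium. Signs turned for 1810011O10Rik in epithelium at most 10% mitochondrial UMIs (-0.24), Adgre5 in fibroblasts with thinned cells (0.11), and Dpp4 in non-classical monocytes with DESeq2 (-0.0659), the block (-0.10) and no alignment (-0.0168). With 1 library left out, ranges crossed 0 for Adgre5 in alveolar macrophages (-0.47 to 1.84), classical monocytes (-0.16 to 0.46), dendritic cells (-0.0695 to 0.19) and neutrophils (-0.16 to 0.51), Enho in alveolar macrophages (-0.0723 to 0.75) and gCap (-0.38 to 0.0353), 1810011O10Rik in epithelium (-0.67 to 0.86) and Dpp4 in non-classical monocytes (-0.66 to 0.75). The cause was not tested. Depth limits Glp1r most, at 14 to 56 UMIs in ECs.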
